A study of Mus musculus with 4 samples.

Results

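The genes described here are Trp53, which encodes the transcription factor p53, its inhibitors Mdm2 and Mdm4, and 7 genes that p53 is known to activate, Cdkn1a, Ccng1, Sesn1, Sesn2, Zmat3, Phlda3 and Trp53inp1. These 10 genes were chosen by name, with no threshold on a measured value but with earlier results of these data known, from the 50600 genes in the deposited tables. RNA was sequenced from primary T cells of C57BL/6NJ mice, with 4 biological replicates in 1 group, no treatment, genotype or second condition in the labels, and neither age nor sex given. The file headers call the cells Th0, activated, sorted and taken at 72 h, and Th0 is the usual name for CD4 T cells stimulated without cytokines that direct them to a helper subset. The labels name total RNA sequencing, whereas the title of the linked library protocol names polyadenylated RNA, and all 4 libraries carry 1 donor entry. Whether each replicate had its own animal or culture is not stated. Each spread and p-value below therefore measures only the spread between these 4 libraries, which may be technical in part. The libraries were not alike, since replicates 1 and 2 differed from replicates 3 and 4 in Xist, at values given below.

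p53 is held low in resting cells because Mdm2, a ubiquitin ligase, marks it for degradation, while the related protein Mdm4 binds p53 and masks its activation domain. DNA damage, stalled replication and ribosomal stress free p53 from Mdm2, and p53 then activates genes that stop the cell cycle, repair DNA, limit growth signalling or start cell death. Mdm2 is itself activated by p53, which closes a negative feedback loop, and in stimulated T cells p53 is known as a brake on proliferation.

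p53 binds DNA as a tetramer at a pair of decamers, each made of purines, a core of C, 2 bases that are A or T, and G, and then pyrimidines. The promoters of the members were searched for this p53 decamer because Mdm2 and the 7 other targets are genes that p53 activates through such elements. Promoter windows of 300 bases, 250 before to 50 after an annotated start, were taken from RefSeq on GRCm38.p6 and matched 8 members with 11 windows. Zmat3 and Trp53inp1 were not matched. The decamer is its own reverse complement in consensus, so each search covers both strands. A pair of decamers at most 13 bases apart with at most 2 mismatches in all was found in 3 of the 11 windows, in Cdkn1a, Ccng1 and Sesn1, and in 4.09% of all 32851 RefSeq windows. These 3 stretches are shown from 250 to 31 bases before the start, read 5′ to 3′ on the strand of the gene, with capitals for the decamers of each such pair.
Cdkn1a, chr17:29090729-29090948, plus strand: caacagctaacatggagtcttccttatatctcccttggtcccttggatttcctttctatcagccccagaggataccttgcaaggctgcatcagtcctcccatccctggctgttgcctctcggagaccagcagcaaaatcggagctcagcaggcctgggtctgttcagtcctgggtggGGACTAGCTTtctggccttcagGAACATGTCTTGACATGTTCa
Ccng1, chr11:40755317-40755536, minus strand: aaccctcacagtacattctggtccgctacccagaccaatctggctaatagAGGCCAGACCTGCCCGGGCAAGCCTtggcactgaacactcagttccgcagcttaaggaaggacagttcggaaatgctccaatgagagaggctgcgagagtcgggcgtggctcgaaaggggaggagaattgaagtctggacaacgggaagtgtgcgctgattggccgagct
Sesn1, second annotated start, chr10:41887189-41887408, plus strand: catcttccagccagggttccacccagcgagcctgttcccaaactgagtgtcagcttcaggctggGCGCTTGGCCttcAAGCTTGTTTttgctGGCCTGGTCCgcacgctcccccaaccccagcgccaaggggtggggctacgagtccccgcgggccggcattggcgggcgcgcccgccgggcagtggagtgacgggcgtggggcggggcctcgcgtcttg

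In Cdkn1a the adjacent pair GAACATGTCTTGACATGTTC lies at positions -51 to -32 from the start, with 1 mismatch. In Ccng1 the adjacent pair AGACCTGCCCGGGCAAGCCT lies at -195 to -176, also with 1 mismatch. Cdkn1a held another, overlapping pair at -73 to -42, with 12 bases between its decamers and 0 mismatches. Adjacent pairs with at most 1 mismatch occurred in 22 windows of the genome-wide set (0.0670%), Cdkn1a and Ccng1 among them. The Sesn1 decamers span -186 to -149 from the second annotated start, each pair with 2 mismatches, and its first start had none. A single decamer without mismatch was found in 5 of the 11 member windows and in 8.36% of all windows. Mdm2 held 1 such decamer, GAACTTGCCT, beginning at -186, and Trp53 held GGACTTGCCC, beginning at -75. Neither had a pair, and the windows of Mdm4, Sesn2 and Phlda3 held no decamer without mismatch. A match describes the letters in a window and is not a measured binding site, and elements of p53 targets that lie in introns or farther away were not analysed here.

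Depth ranged from 34978213 to 118937382 counted read pairs per library, and no 2 libraries agreed within sampling noise (chi-square per degree of freedom between 28.8 and 83.7). The 7 T cell markers examined, Cd4 among them, were present in every library and summed to 5986 to 6378 TPM. TPM is the count of a gene divided by its exon length, scaled to the same sum in every library. The 4 markers of dividing cells summed to 1247 to 1336 TPM and the 4 of T cell activation to 4104 to 4502 TPM. Of the markers of other cells, Lyz2, S100a8, S100a9, Itgax and Cdh5 were at 0 counts in all 4 libraries. Summed levels lay between 2.24 and 5.51 TPM for the 4 B cell markers. They lay between 12.4 and 16.0 TPM for the 5 macrophage and neutrophil markers, nearly all from Cd68. The 2 CD8 markers summed to 17.5 to 29.5 TPM, nearly all from Cd8b1, while Cd8a stayed between 0.0636 and 0.511 TPM. The 3 erythroid markers summed to at most 1.55 TPM, the 3 dendritic markers to at most 0.242 TPM and the 3 stromal, endothelial and epithelial markers to 4.09 to 4.61 TPM. The libraries stood apart in Xist, at 278.4 and 315.9 TPM in replicates 1 and 2 against 1.25 and 0.586 TPM in replicates 3 and 4, although they share a donor entry. They also differed with base composition, since deviations from the mean of each gene correlated with GC content across 10942 coding genes with Spearman rho -0.30 in replicate 1 and 0.31 in replicate 4. With exon length the rho was -0.18, 0.0073, 0.35 and -0.19 in replicates 1 to 4. Malat1, an abundant nuclear RNA, stood at 348.0, 63.2, 246.0 and 59.3 TPM. Genes are not independent replicates, and the part of these differences in the values below was not tested.

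All 10 members were transcribed in every library, between 34.5 and 923.9 TPM, and each stood above the median of the 10861 coding genes that reached 1 TPM in all 4 libraries (31.9 TPM). Between 1575 and 87261 read pairs stood behind each value. The mean of the most abundant member, Cdkn1a, was 24.6 times that of the least abundant, Sesn1. Levels in bulk RNA do not tell apart how many cells carry a transcript and how much each cell holds.

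**Figure D1:**
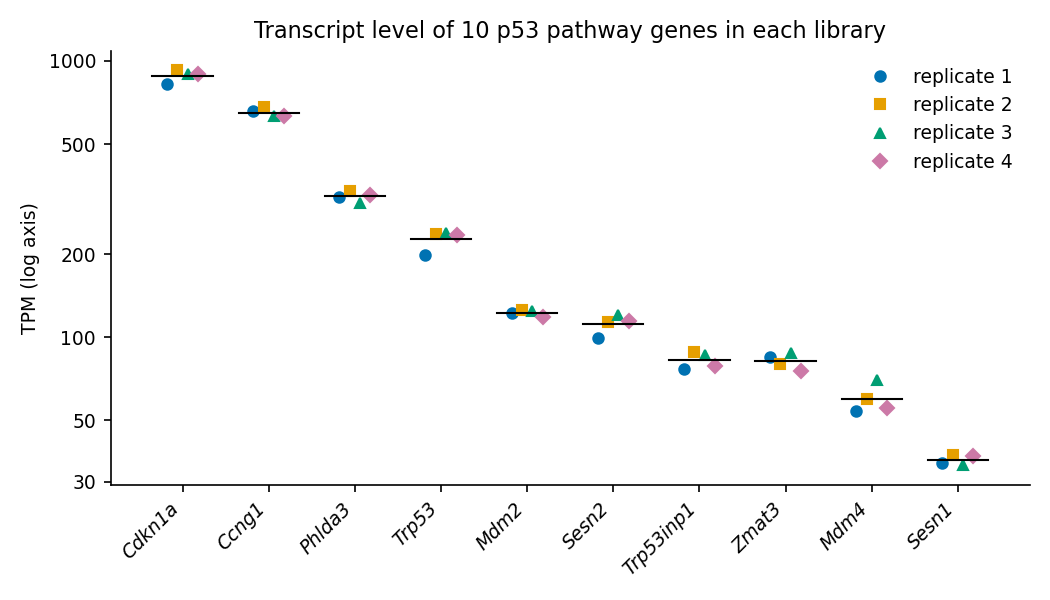
TPM (log axis) of the 10 members in each of the 4 libraries, ordered by mean, with a horizontal line at the mean. The 4 points of a gene lie close together compared with the distance between Cdkn1a at 885.1 and Sesn1 at 36.0 TPM, and the points of Trp53inp1 and Zmat3 interleave.

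Trp53 (ENSMUSG00000059552.13, mm10 chromosome 11, 69580359 to 69591873, plus strand) stood at 199.0, 236.8, 237.9 and 235.1 TPM in replicates 1 to 4, with a mean of 227.2 ± 18.8 (SD, n = 4). Replicate 1 was low and the other 3 lay within a few TPM of one another. The mean was at percentile 93.2 of the expressed coding genes. Closeness to it in level was measured by mean absolute difference of log2(TPM + 0.1) over the 4 libraries, among 10860 coding genes. The closest genes were Ldb1 at 0.0320, Grk6 at 0.0328 and Cad at 0.0352. These genes were chosen for following Trp53 library by library, so that their own low in replicate 1 comes from the choice. The p53 relatives were nearly silent. Trp73 ranged from 0.0640 to 0.563 TPM on 4 to 92 counts, and Trp63 had 3 counts in replicate 3 and 0 in the others. On the log2(TPM + 0.1) scale Trp53 exceeded Trp73 by 9.26 ± 0.74 (SD, n = 4), higher in 4 of 4 libraries. With Trp73 so near the added 0.1, the size depends on that constant, and with 1 added in its place it was 7.45.

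Mdm2 (ENSMUSG00000020184.15, chromosome 10, 117688875 to 117710758, minus strand) was the steadiest member by TPM, at 122.5, 125.3, 124.9 and 118.6 in replicates 1 to 4, with a mean of 122.8 ± 3.09 (SD, n = 4). No library stood apart. Mdm4 (ENSMUSG00000054387.13, chromosome 1, 132959484 to 133030561, minus strand) stood at 54.1, 59.8, 70.0 and 55.7 TPM, with a mean of 59.9 ± 7.17 (SD, n = 4), and was highest in replicate 3. The 4 Mdm2 values all exceeded the 4 Mdm4 values, and Mdm2 was higher by 1.04 ± 0.15 log2 (SD, n = 4), 2.06-fold. This difference between the inhibitors depended on gene length, since by CPM, counts scaled to the library total without regard to length, Mdm4 was the higher (log2 difference of Mdm2 from Mdm4 -0.50). Trp53 exceeded Mdm2 by 0.88 ± 0.13 log2 and Mdm4 by 1.93 ± 0.13 log2 (SD, n = 4), in 4 of 4 libraries each. By CPM the difference of Trp53 from Mdm4 was 0.06 log2 (exact permutation p = 0.375), no longer in 1 direction in all libraries. A processed copy, Mdm4-ps, carried at most 18 counts and the copy Trp53-ps at most 1, so few uniquely mapped reads were assigned to them. Reads that fit both a gene and its copy were not counted, and the levels of Mdm4 and Trp53 are uncertain to that extent.

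Cdkn1a, which encodes the cyclin-dependent kinase inhibitor p21 (ENSMUSG00000023067.13, chromosome 17, 29090979 to 29100722, plus strand), had the highest TPM of the members. It stood at 827.1, 923.9, 895.0 and 894.5 TPM in replicates 1 to 4, with a mean of 885.1 ± 41.0 (SD, n = 4), at percentile 99.0. Replicate 1 was again the lowest on this scale, and the 4 libraries spanned a narrow range. Cdkn1a exceeded Mdm2, also a p53 target, by 2.85 ± 0.07 log2 (SD, n = 4), 7.20-fold, in 4 of 4 libraries. It exceeded Cdkn1b, which encodes the related inhibitor p27 and stood at 30.5 ± 3.06 TPM (SD, n = 4), by 4.86 ± 0.10 log2, 29.0-fold. Its neighbour Trp53cor1 on the opposite strand, known as lincRNA-p21 (chromosome 17, 29057474 to 29078961, minus strand), lies 12017 bases from Cdkn1a. It stood at 4.32, 3.60, 4.31 and 4.88 TPM, and the mean of Cdkn1a was 207 times that.

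Ccng1 encodes cyclin G1, which guides a phosphatase to Mdm2 (ENSMUSG00000020326.7, chromosome 11, 40748552 to 40755311, minus strand). Its level was 658.5, 682.0, 629.8 and 631.8 TPM in replicates 1 to 4, with a mean of 650.5 ± 24.7 (SD, n = 4). Replicates 1 and 2 lay above replicates 3 and 4, the pairs of libraries that also differed in Xist, and a link was not tested. Ccng1 was 0.44 ± 0.08 log2 below Cdkn1a by TPM and above it by CPM, at means of 711.4 and 612.1 CPM (log2 difference of Cdkn1a from Ccng1 -0.22). It was 4.57 ± 0.11 log2 (SD, n = 4), 23.7-fold, above its relative Ccng2, which stood at 27.4 ± 1.57 TPM. Phlda3 encodes a pleckstrin homology domain protein that keeps the kinase Akt from the membrane (ENSMUSG00000041801.5, chromosome 1, 135766119 to 135769136, plus strand). It stood at 321.4, 338.4, 305.4 and 328.2 TPM, with a mean of 323.3 ± 13.9 (SD, n = 4). The relatives Phlda1 and Phlda2 were lower, at 37.8 ± 5.05 and 0.331 ± 0.356 TPM.

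The sestrins bind the GATOR2 complex and so restrain the growth kinase complex mTORC1, and Sesn2 also senses leucine. Sesn2 (ENSMUSG00000028893.8, chromosome 4, 132492032 to 132510501, minus strand) stood at 98.96, 113.3, 120.1 and 114.1 TPM in replicates 1 to 4, with a mean of 111.6 ± 8.97 (SD, n = 4) and replicate 1 lowest. Sesn1 (ENSMUSG00000038332.13, chromosome 10, 41809935 to 41908424, plus strand) was far lower, at 35.0, 37.3, 34.5 and 37.1 TPM, with a mean of 36.0 ± 1.45 (SD, n = 4). No Sesn1 value came near a Sesn2 value, and the log2 difference of Sesn1 from Sesn2 was -1.63 ± 0.13 (SD, n = 4). Sesn3, the sestrin better known as a target of FoxO factors, stood at 29.3 ± 1.66 TPM, below Sesn2 by 1.93 ± 0.06 log2 and below Sesn1 by 0.30 ± 0.10 log2. Only the order of Sesn2 over Sesn1 held under all 3 length scalings tried. By CPM Sesn3 was above both (log2 difference of Sesn1 from Sesn3 -1.64 and of Sesn2 from Sesn3 -0.21). All 5 GATOR2 genes examined reached 1 TPM in every library, led by Sec13 at 175.4 ± 3.12, Seh1l at 73.3 ± 2.08, Wdr24 at 64.6 ± 2.87 and Wdr59 at 20.8 ± 0.842 TPM.

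Trp53inp1 encodes a nuclear stress protein that promotes p53 phosphorylation and autophagy (ENSMUSG00000028211.11, chromosome 4, 11156431 to 11174379, plus strand). Its level was 76.9, 88.3, 86.0 and 78.4 TPM in replicates 1 to 4, with a mean of 82.4 ± 5.60 (SD, n = 4). Its relative Trp53inp2 was lower by 2.61 ± 0.11 log2, at 13.4 ± 1.63 TPM. Zmat3 encodes a zinc finger protein that binds RNA and alters splicing (ENSMUSG00000027663.12, chromosome 3, 32334792 to 32366014, minus strand). It stood at 84.7, 79.7, 87.9 and 75.2 TPM, with a mean of 81.8 ± 5.60 (SD, n = 4). These genes could not be ordered, since Zmat3 was higher in replicates 1 and 3 and Trp53inp1 in replicates 2 and 4.

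By mean TPM the order was Cdkn1a, Ccng1, Phlda3, Trp53, Mdm2, Sesn2, Trp53inp1, Zmat3, Mdm4 and Sesn1. This order came from the same 4 libraries, so it largely fixed the direction of each mean step. Of the 9 steps between neighbours, 8 went the same way in all 4 libraries. The exception was Trp53inp1 over Zmat3, at 0.01 ± 0.12 log2 (SD, n = 4; exact two-sided sign-flip permutation p = 0.875). The next smallest step was Mdm2 over Sesn2 at 0.14 ± 0.12 log2, where the ranges over libraries overlapped although Mdm2 was higher within each library. That step was 0.0857 log2 without replicate 1. The remaining steps were 0.44 ± 0.08 log2 from Cdkn1a to Ccng1, 0.88 ± 0.13 from Trp53 to Mdm2, 0.51 ± 0.14 from Phlda3 to Trp53, 1.01 ± 0.04 from Ccng1 to Phlda3, 0.44 ± 0.09 from Sesn2 to Trp53inp1, 0.45 ± 0.14 from Zmat3 to Mdm4 and 0.73 ± 0.20 from Mdm4 to Sesn1. By CPM the steps from Phlda3 to Trp53 (-0.86) and from Sesn2 to Trp53inp1 (-0.46) also turned, and that from Zmat3 to Mdm4 was 0.08 (exact permutation p = 0.375). Over all 21 pairs of genes compared, 20 had 1 direction in 4 of 4 libraries, and the share among other gene pairs was not computed. For these 20 the exact permutation p was 0.13, the smallest that 4 libraries allow. It was 0.131 after Benjamini-Hochberg adjustment, so that no pair could pass 0.05.

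The lengths in the deposited tables join the exons of all transcripts of a gene, and this length was 2.17 times that of the longest coding transcript for Trp53, 2.08 times for Mdm4, 1.62 times for Mdm2 and 1.47 times for Zmat3. With the length of the longest coding transcript, an alternative chosen after the data were seen, the mean rose to 358.6 TPM for Trp53 and 90.9 TPM for Mdm4. Trp53 then stood above Phlda3 (log2 difference of Phlda3 from Trp53 -0.48), and Mdm4 could not be told from Zmat3 (log2 difference of Zmat3 from Mdm4 -0.05, exact permutation p = 0.5). Cdkn1a and Ccng1 were still the highest, at 689.2 and 474.0 TPM, and Sesn1 the lowest at 27.4 TPM.

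**Figure D2:**
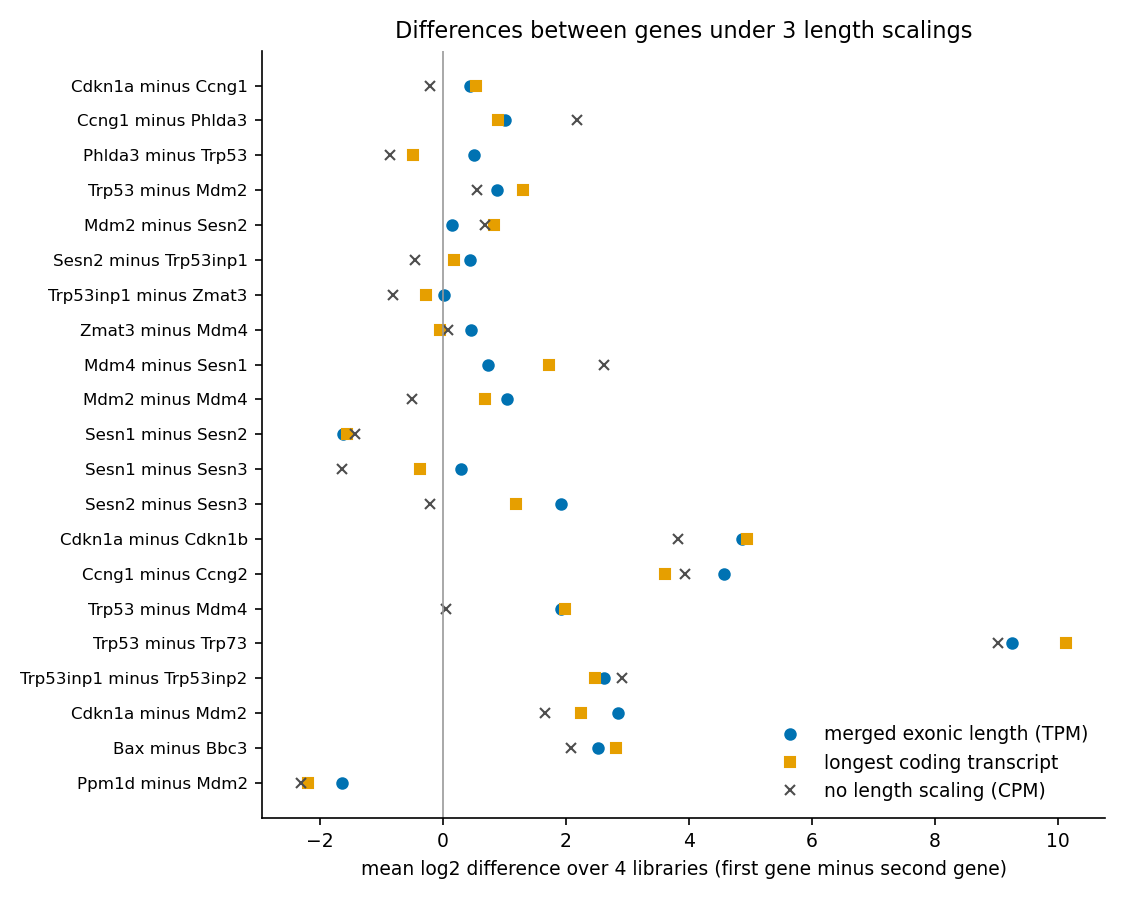
Mean log2 difference over 4 libraries between the genes of each pair (first minus second) with TPM by merged exon length, TPM by the longest coding transcript, and CPM, which has no length scaling. Points of Phlda3 minus Trp53 and Sesn1 minus Sesn3 fall on both sides of 0, whereas those of Cdkn1a minus Mdm2, Cdkn1a minus Cdkn1b and Ccng1 minus Ccng2 all lie above 1.5.

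The members varied little between libraries. In CPM after TMM scaling, which adjusts library totals for composition, the ratio of the highest to the lowest library ran from 1.05 for Cdkn1a to 1.23 for Mdm4, with a median of 1.12 over the members and 1.20 over all 14269 genes tested. In between lay Mdm2 at 1.08, Sesn1 at 1.10, Trp53inp1 at 1.11, Ccng1 at 1.12, Trp53, Phlda3 and Sesn2 at 1.13, and Zmat3 at 1.18. The SD of log2 CPM lay between 0.032 and 0.137, below the median of all genes (0.119) for 9 of the 10 members. That median includes many weak genes. Against genes within 0.25 log2 of its own level, only 4 of the 10 members had an SD below the median. Mdm4 was the farthest above, at 0.137 against 0.069.

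The spread was still larger than counting error for every member, by 2.17 to 12.3 times. By the edgeR goodness-of-fit test under the trended dispersion, 0 of 10 members passed an adjusted p of 0.05, against 66 of 14269 genes (0.463%). With so low a share over all genes, a count of 0 among 10 does not set the members apart. At an unadjusted p under 0.05 the counts were 0 of 10 members against 5.69% of all genes. The count of members was also 0 with limma, with DESeq2 size factors and with each library left out. The lowest member p was that of Mdm4, 0.115 before and 1.00 after adjustment by edgeR.

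**Figure D3:**
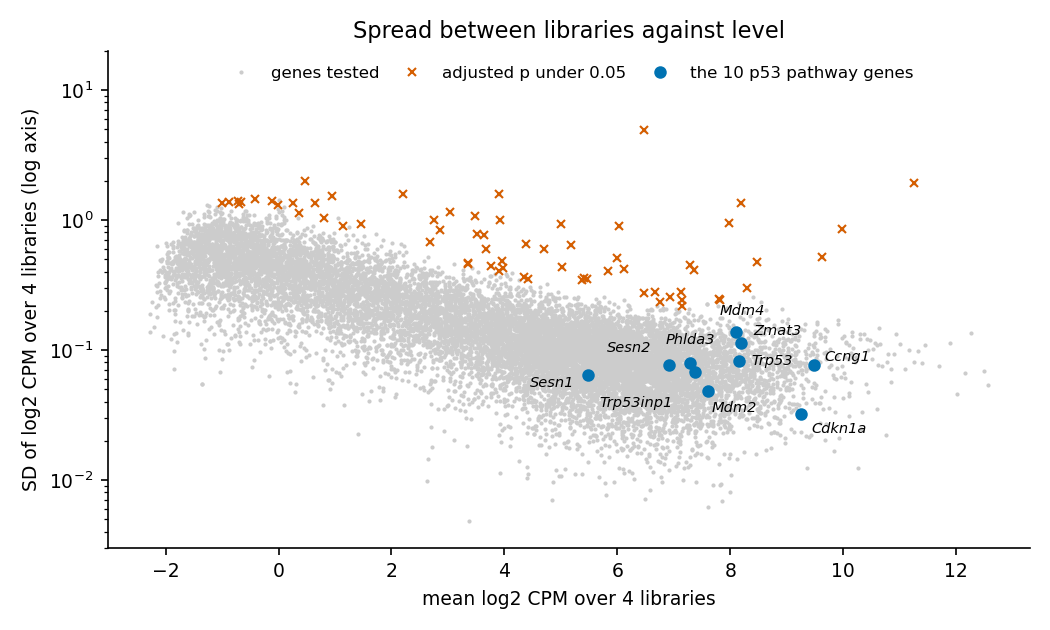
SD of log2 CPM over the 4 libraries (log axis) against the mean for every gene tested, with crosses for the 66 genes at an adjusted edgeR p under 0.05 and large points for the members. The members lie inside the cloud of genes of their own level and none is a cross.

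Libraries that were high for one member were low for another. Mdm4 was 0.20 log2 above its mean in replicate 3 and below it in the other 3 libraries. Trp53 was 0.12 log2 below its mean in replicate 1 and 0.04 to 0.05 above it in the other 3. Zmat3 was 0.12 and 0.07 log2 above its mean in replicates 1 and 3 and 0.06 and 0.13 below it in replicates 2 and 4. In replicate 3, where deviations rose with exon length across coding genes, the members with the longest exon sequence, Mdm4 and Zmat3, were above their means. Phlda3, the shortest, was 0.12 log2 below its mean there, and Sesn1 and Ccng1 were 0.10 and 0.08 below. Sesn2, of about the length of Ccng1, was 0.08 above. Trp53inp1 was 0.03 above, while Mdm2 was 0.01 below and Cdkn1a, with only 2223 bases, 0.02 below. In replicate 1, where the rho with exon length was -0.18, Zmat3 was above its mean and Mdm4 0.08 log2 below. Whether length shaped these deviations was not tested. After correction for GC content and length the lowest member p by edgeR was that of Phlda3, 0.216 before adjustment, in place of Mdm4. Replicate 1 was the highest library for 4 members and the lowest for 3, and replicate 3 the highest for 2 and the lowest for 3. On the TPM scale replicate 1 was the lowest for 5 of the 10 members, and for 5661 of the 10861 expressed coding genes (52.1%).

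**Figure D4:**
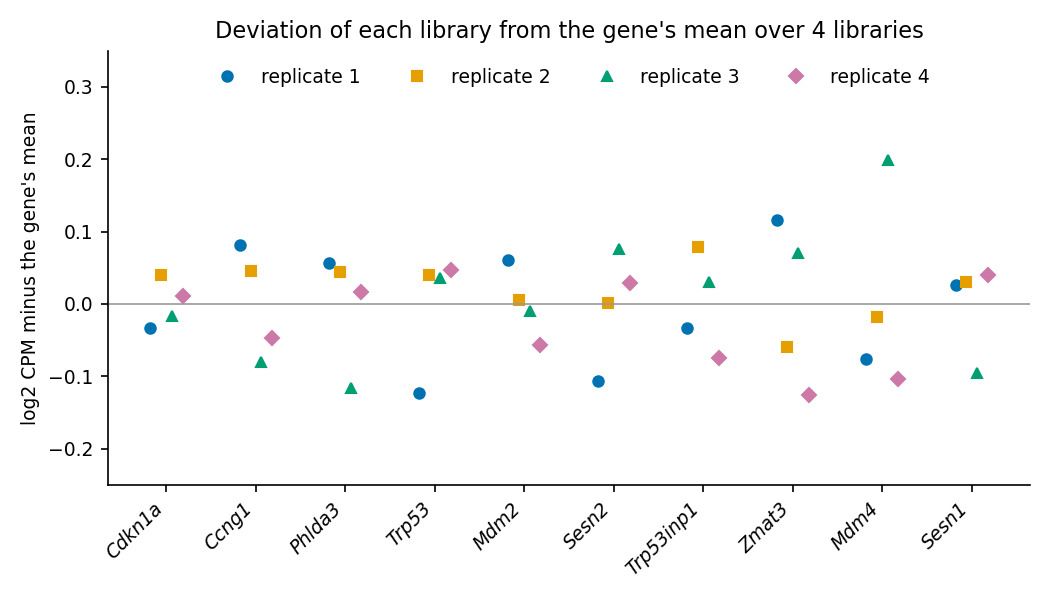
Log2 CPM of each library minus the mean of the gene over the 4 libraries, for the 10 members. All points lie between -0.13 and 0.20, and no replicate is high or low throughout.

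The wider pathway was examined in 11 lists of 107 genes that are not members. Of these, 98 reached 1 TPM in every library, 6 stayed under 1 TPM in all 4, and the median of their mean levels was 39.5 TPM. Over all 50600 genes, noncoding ones included, 12535 reached 1 TPM in every library, 10861 of them coding. The list genes are coding apart from Ptprv and Trp53cor1, and the share among all coding genes was not computed. The counts for the lists therefore have no matched background. None of the 102 pathway genes that could be tested passed the edgeR test at an adjusted p of 0.05. At an unadjusted p under 0.05 by edgeR 4 did so, beside the 5.69% of all genes. These were Hipk2, Ptprv, Eda2r and Crebbp, with adjusted p of 0.130, 0.143, 0.251 and 0.303 by edgeR. Hipk2 (6.44, 4.11, 7.02 and 4.97 TPM in replicates 1 to 4) was higher in replicates 1 and 3. So were Eda2r (3.62, 2.38, 4.95 and 2.59) and Crebbp (23.4, 20.3, 25.9 and 19.8). Ptprv (39.4, 45.5, 56.4 and 40.7) was highest in replicate 3. Replicates 1 and 3 also had the lower depth and the higher Malat1, and a link was not tested. Hipk2, a kinase that phosphorylates p53, passed after correction for GC content and length (adjusted p 0.0435), where 0.512% of all genes did, and Ptprv passed without replicate 1 (adjusted p 0.0481), where 0.27% did. Under a single common dispersion Ccnd1, Dram1 and Eda2r passed, 3 of 102, beside 955 of 14269 genes (6.69%).

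**Figure D5:**
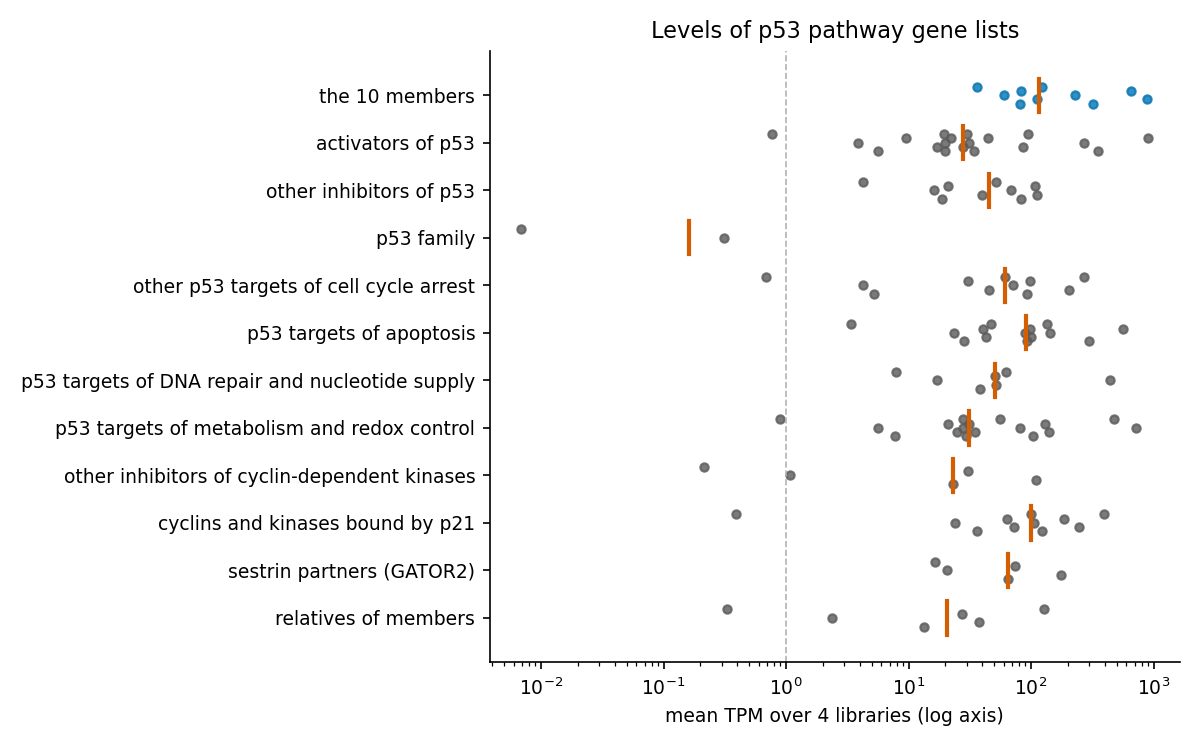
Mean TPM over 4 libraries (log axis) of each gene in the 10 members and in 11 lists of pathway genes, with an orange bar at the median of each list and a dashed line at 1 TPM. The lists of p53 targets and of p53 regulators lie almost wholly to the right of the line, and both p53 relatives, Trp63 and Trp73, to its left.

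Of the 19 activators of p53, 18 reached 1 TPM in every library, with a median of 27.7 TPM. The ribosomal proteins that bind Mdm2 when ribosome assembly is disturbed were the most abundant, Rpl23 at 908.0 ± 29.4, Rpl11 at 351.7 ± 22.9 and Rpl5 at 271.2 ± 21.7 TPM (SD, n = 4), followed by the deubiquitinase Usp7 at 95.1 ± 4.48 TPM. The damage kinases were lower, Atm at 19.8 ± 1.79 and Atr at 9.50 ± 0.969 TPM. The exception was Cdkn2a, which encodes the Mdm2 inhibitor Arf, at 0.227, 0.351, 0.724 and 1.76 TPM on 3, 15, 11 and 61 counts. These counts are for the whole gene and do not separate its transcripts, so the part from Arf is not known. All 10 other inhibitors of p53 were expressed, with a median of 45.7 TPM, led by the methyltransferase Smyd2 at 111.9 ± 3.83, the mitotic kinase Aurka at 107.9 ± 3.26, Ube4b at 82.1 ± 5.33 and Kmt5a at 69.3 ± 2.52 TPM. Ppm1d, a p53-induced phosphatase that reverses damage signalling, stood at 39.5 ± 2.45 TPM, and its log2 difference from Mdm2 was -1.64 ± 0.06 (SD, n = 4), lower in 4 of 4 libraries. Atm, Atr and the genes under 1 TPM are named for their roles, after their values were seen.

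Among p53 targets outside the members, 47 of 49 reached 1 TPM in every library, with a median of 50.5 TPM, beside a median of 111.6 TPM for the 7 member targets other than Mdm2. All 14 apoptosis genes were present, led by Bax, a pore-forming protein of the mitochondrial outer membrane, at 562.8 ± 15.1 TPM (SD, n = 4), Siva1 at 296.4 ± 8.82, Perp at 142.8 ± 5.93 and Ei24 at 134.7 ± 5.96 TPM. Bax exceeded Bbc3, which encodes the killer protein Puma and stood at 98.3 ± 7.52 TPM, by 2.52 ± 0.13 log2 in 4 of 4 libraries. Of the 11 other arrest targets 10 were present, led by Gtse1 at 269.0 ± 16.4, Psrc1 at 205.8 ± 10.4, Plk3 at 98.0 ± 7.18 and Btg2 at 93.4 ± 4.19 TPM, and Rprm stayed at 0.684 ± 0.161 TPM. Gtse1 also rises with the cell cycle and moves p53 out of the nucleus. Its window held an adjacent decamer pair with 1 mismatch, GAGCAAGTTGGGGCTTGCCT, and 8 of the 108 windows of the pathway lists held a pair with at most 2 mismatches (7.41%).

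All 7 repair targets were present, led by the replication clamp Pcna at 439.5 ± 17.4 TPM, and included Polk at 51.5 ± 2.17 and Ercc5 at 50.5 ± 1.57 TPM (SD, n = 4). Pcna is also a marker of dividing cells. Of the 17 metabolic targets 16 reached 1 TPM in every library, led by the glutathione peroxidase Gpx1 at 714.7 ± 59.2, the mTORC1 inhibitor Ddit4 at 475.1 ± 37.3, Dcxr at 141.3 ± 8.56 and Abhd4 at 129.4 ± 8.99 TPM. Dram1 did so only in replicate 2, at 1.58 TPM.

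The partners of p21 were abundant beside it. Of 11 cyclins and kinases, 10 reached 1 TPM in every library, with a median of 99.4 TPM, led by Cdk4 at 391.1 ± 17.5, Ccnd2 at 245.2 ± 13.8, Ccna2 at 185.8 ± 6.32 and Ccne1 at 123.5 ± 3.82 TPM (SD, n = 4). Ccnd1 stayed at 0.393 ± 0.209 TPM. Cdkn1a stood above each of these genes, by TPM, in every library. By CPM Ccnd2 was the higher, at a mean of 717.7 against 612.1 for Cdkn1a. Of the 5 other kinase inhibitor genes 3 were present throughout, Cdkn2d at 109.3 ± 3.81, Cdkn1b at the level given above and Cdkn2c at 22.9 ± 2.94 TPM, while Cdkn1c stood at 1.08 ± 0.382 TPM and Cdkn2b at 0.214 ± 0.182 TPM. Of the 6 relatives of members 5 were present throughout, led by Zmat2 at 127.1 ± 1.67 TPM.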

How the data were processed

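Per the file headers, the deposited tables hold raw counts per gene of read pairs with both ends mapped, made by the authors. The file headers name featureCounts 1.4.6-p4 as the counting tool. The annotation was GENCODE M13 on mm10 and the strand setting was reverse, per the same headers. Options for multiply mapped or multiply overlapping reads were off, per the file headers, so genes with close copies can lose reads. No exon of a member overlapped an exon of another gene. The aligner is named STAR in the headers, and the sources used here do not give its version. Counts were deposited, as the design had assumed. Identifiers of 50376 of 50600 genes (99.6%) matched GENCODE M21, which gave symbols.

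TPM was computed from these counts and the deposited exon lengths. Gene pairs were compared within libraries as differences of log2(TPM + 0.1), which understates differences of low genes, with an exact sign-flip permutation test. Variability was tested over all genes with edgeR 4.0.16 in R 4.3.3 (filterByExpr, TMM scaling, factors from 0.994 to 1.01, an intercept-only fit and Benjamini-Hochberg adjustment), after a check on simulated data. Alternatives used limma 3.58.1, DESeq2 1.42.0, other scalings, filters and left-out libraries.

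The members and lists were chosen with earlier results of these data known. Named genes were all members, every gene of the 21 pairs, the 4 most abundant of each list, any that passed the variability test or had 0 counts throughout, and the 3 coding genes closest to Trp53, of which 1 list gene is not reported here. Protein identity between members and promoters beyond the RefSeq windows were not analysed here.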

Additional observations from a re-analysis of the deposited data

Results flagged for a closer look

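Trp53 stood at 199.0 TPM in replicate 1, away from 235.1 to 237.9 TPM in the other 3 libraries, and the gap made up 0.926 of the whole range. The same library was low in CPM after TMM scaling, at 262.2 against 292.8 to 295.1. Replicate 1 stood apart and low for 277 of the 10861 expressed coding genes (2.55%), and some library stood apart for 650 (5.99%). Trp63 was at 0.0276 TPM in replicate 3, on 3 counts, and at 0 in the other 3 libraries. These were 2 of 76 values examined, where chance alone, at about 1 in 20, gives 3.8.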

How the results depend on the processing

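No paired analysis between groups was possible because the labels give 1 group, and only genes were compared within libraries. With a pseudocount of 1 all 21 gene differences kept their direction. By CPM 14 did and 7 reversed, to -0.22 log2 for Cdkn1a minus Ccng1, -0.86 for Phlda3 minus Trp53, -0.46 for Sesn2 minus Trp53inp1, -0.81 for Trp53inp1 minus Zmat3, -0.50 for Mdm2 minus Mdm4, -1.64 for Sesn1 minus Sesn3 and -0.21 for Sesn2 minus Sesn3. By the longest coding transcript, chosen after the data were seen, 17 kept it and 4 reversed, to -0.48 for Phlda3 minus Trp53, -0.28 for Trp53inp1 minus Zmat3, -0.0506 for Zmat3 minus Mdm4 and -0.38 for Sesn1 minus Sesn3. Both settings change only the gene length used. With 1 library left out, Trp53inp1 minus Zmat3 ran from -0.0359 to 0.0599 log2 and the other 20 kept their direction. The variability test passed 955 genes under a common dispersion, 27 by limma and 41 to 68 with 1 library left out. Of the pathway genes it passed 3 under a common dispersion, 1 after GC and length correction and 0 to 1 with 1 library left out (Ptprv without replicate 1). The cause was not tested. It passed 0 members throughout. All members also passed 5 TPM and 1 CPM in every library. With coding genes alone in the total 9 of the 10 levels moved by more than their SD, Cdkn1a to 979.0 TPM. A count of 0 leaves up to 3 counts possible, 0.0252 to 0.0858 CPM, for counting error only.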
